A study of Mus musculus with 40 samples.

Results

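Saracatinib was compared with vehicle in the saline lungs of the bleomycin model, that is, in lungs that had received no fibrosis-inducing agent. The 5 saracatinib libraries were chosen by the labels for the inhibitor saracatinib and the stimulation saline, and the 5 vehicle libraries by the labels for vehicle and saline, which makes 10 of the 40 libraries of the series. All of them came from left lungs of C57BL/6 mice that were given saline by oropharyngeal instillation. From day 10 the mice were gavaged daily with saracatinib at 20 mg/kg or with vehicle, for 18 days in all, and the lungs were collected on day 28. The labels say that mice of both sexes were studied, with 15 to 20 per group, of which 5 per group were sequenced. By their Xist and Ddx3y counts, given below, all 10 saline libraries came from males. The labels give neither age nor the hour of harvest. Lungs given bleomycin at 1.5 U/kg or an adenovirus with TGF-β (Ad-TGF-β1), each with saracatinib or vehicle, are set beside these for some genes. Each of those groups has 5 libraries, and the bleomycin libraries also entered the fit behind the saline p-values. The same drug and vehicle were also given to mice that had received an empty adenoviral vector by the nose, and these 10 libraries (5 with saracatinib and 5 with vehicle) serve as a second, separately treated pair of groups without a fibrotic agent. They differ from the saline pair at least in the route and in the exposure to a virus particle. The sex of the empty vector mice was not checked by Xist and Ddx3y counts. A difference in sex or in harvest between the pairs therefore cannot be told apart from these.

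Saracatinib is an orally available inhibitor that binds the ATP pocket of the Src family kinases, non-receptor tyrosine kinases that carry signals from integrins, growth factor receptors and immune receptors, and of the related Abl kinases. It is also known to inhibit ALK2, the product of Acvr1, a type I receptor of the bone morphogenetic protein (BMP) family. BMP receptors phosphorylate Smad proteins, which switch on the Id genes, inhibitors of basic helix-loop-helix factors, and the inhibitory Smads that damp the pathway, whereas TGF-β acts through other Smads on matrix genes of fibroblasts. Adamtsl2 is a secreted protein without protease activity that binds fibrillin microfibrils and latent TGF-β binding protein, and loss of ADAMTSL2 function in humans causes geleophysic dysplasia. Every cell of the lung also runs a circadian clock, in which Clock or Npas2 pairs with Arntl (BMAL1) on E-box sequences of the Per, Cry and Nr1d genes, Nr1d1 and Nr1d2 repress Arntl through ROR elements, and Dbp, Tef and Hlf act on D-boxes.

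The promoter windows of Adamtsl2, the single gene called in saline lungs, and of 4 clock genes that hold a match to a clock motif are shown because the results below turn on these genes. Tef and Arntl have a pair of windows each, of which one is shown. Both Tef windows hold the E-box. For Arntl the window with a match is shown, and the other, at chr7:113207215-113207514, holds no ROR element. They are RefSeq windows on GRCm38.p6, from 250 bases before to 50 bases after the start site, 5′ to 3′ on the strand of the gene. Capitals mark the motif: the E-box CACGTG in Tef and Cry1, the ROR element TAGGTCA in Arntl, the D-box TTATGTAA in Per3 and none in Adamtsl2. Adamtsl2 is at chr2:27079129-27079428 (plus strand), Tef at chr15:81802423-81802722 (plus strand), Cry1 at chr10:85185005-85185304 (minus strand), Arntl at chr7:113207261-113207560 (plus strand) and Per3 at chr4:151044616-151044915 (minus strand).
Adamtsl2: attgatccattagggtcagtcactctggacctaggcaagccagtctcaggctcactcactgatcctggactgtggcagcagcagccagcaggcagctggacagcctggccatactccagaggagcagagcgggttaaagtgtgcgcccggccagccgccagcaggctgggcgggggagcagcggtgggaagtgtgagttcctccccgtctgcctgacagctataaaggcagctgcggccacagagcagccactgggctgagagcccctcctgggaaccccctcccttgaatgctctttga
Tef: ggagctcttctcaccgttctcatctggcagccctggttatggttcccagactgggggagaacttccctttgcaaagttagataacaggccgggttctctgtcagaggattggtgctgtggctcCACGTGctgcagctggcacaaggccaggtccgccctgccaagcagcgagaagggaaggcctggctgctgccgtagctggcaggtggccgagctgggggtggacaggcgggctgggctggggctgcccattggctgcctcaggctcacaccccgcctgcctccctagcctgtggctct
Cry1: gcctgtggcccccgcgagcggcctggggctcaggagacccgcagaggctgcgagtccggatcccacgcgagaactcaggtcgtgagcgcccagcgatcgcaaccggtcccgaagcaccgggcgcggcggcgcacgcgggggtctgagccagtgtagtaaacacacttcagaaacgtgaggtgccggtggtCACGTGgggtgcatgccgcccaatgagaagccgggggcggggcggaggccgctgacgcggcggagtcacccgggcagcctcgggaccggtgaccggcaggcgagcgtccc
Arntl: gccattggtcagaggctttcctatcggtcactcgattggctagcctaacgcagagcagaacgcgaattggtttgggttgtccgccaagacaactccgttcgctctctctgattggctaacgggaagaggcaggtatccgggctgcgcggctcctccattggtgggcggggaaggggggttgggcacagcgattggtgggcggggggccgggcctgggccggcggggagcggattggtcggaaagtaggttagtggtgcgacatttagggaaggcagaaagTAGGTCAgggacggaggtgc
Per3: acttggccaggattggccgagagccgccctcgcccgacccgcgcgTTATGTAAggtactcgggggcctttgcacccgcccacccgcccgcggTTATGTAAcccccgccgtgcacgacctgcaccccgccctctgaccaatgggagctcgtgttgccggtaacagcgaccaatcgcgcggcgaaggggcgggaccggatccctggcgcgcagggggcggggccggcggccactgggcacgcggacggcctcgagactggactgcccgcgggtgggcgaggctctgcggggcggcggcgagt
Both strands were searched. The E-box was in 7.15% of all 32851 promoter windows and in those of 5 of the 16 clock genes that have one, namely Bhlhe41, Ciart, Cry1, Per1 and Tef. The D-box, as TTATGTAA or TTACGTAA, was in 1.06% of windows and, among the clock genes, in Per3. The ROR element was in 2.61% of windows and, among the clock genes, in Arntl and Nfil3. The Smad palindrome GTCTAGAC was in 0.213% of windows and in no window of a clock gene or of Adamtsl2. A match describes the letters of the window and is not a binding site that was measured.

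Total counts per library were 8812233 to 16322133 with saracatinib and 9514991 to 13725397 with vehicle, and the TMM scaling factors were 0.966 to 1.01 with saracatinib and 0.978 to 1.01 with vehicle. Markers of alveolar type 1 and type 2 cells, capillary endothelium, fibroblasts, macrophages, club cells and ciliated cells were present in all 10 libraries, and the summed level of the thymus markers Rag1, Dntt and Ptcra was at most 0.358 CPM (counts scaled to the library total, adjusted by TMM) with saracatinib and 0.373 CPM with vehicle. Xist, which is made from the inactive X of females, had 3 to 7 counts per library, and the Y-linked gene Ddx3y had 699 to 1482, the pattern of males in all 10. Of the variance among the 10 libraries 38.5% lay on the first principal component, and saracatinib replicate 5 stood farthest from its group on it. The mean log2 CPM of the ciliated cell genes was 7.02 in that library, against 5.45 to 6.36 in the other saracatinib libraries and 5.22 to 6.54 in the vehicle libraries. On the first component this library was at 62.7, vehicle replicate 5 at 28.6 and saracatinib replicate 3 at 25.8, while all others were negative. Vehicle replicate 5 also had the highest ciliated value of its group, 6.54. The part of saracatinib replicate 5 in the list results was looked at by leaving it out. The list results were not redone without vehicle replicate 5, so this step changes 1 group only.

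Few genes separated the groups beyond the spread between mice. Of 18846 genes tested with edgeR's quasi-likelihood test, 1 was called at an adjusted p under 0.05 (0.00531%), and it was lower with saracatinib. With saracatinib 600 genes (3.18%) lay higher and 801 (4.25%) lower at an unadjusted p under 0.05. The 5 values of one group lay wholly above those of the other for 264 genes, of which 86 (0.456%) were higher with saracatinib and 178 (0.944%) lower. Leaving out 1 library gave 0 calls without saracatinib replicate 3, 4 without saracatinib replicate 2, 3 without vehicle replicate 5 and 2 without vehicle replicate 1. DESeq2 called 52 genes, 18 higher and 34 lower, and limma voom with quality weights called 9, 1 higher and 8 lower. The median log2 fold change over all genes was 0.00745 and the median standard error 0.15. For 16574 genes (87.9%) the 95% interval of the change lay within 2-fold in either direction, and for 11960 (63.5%) within 1.5-fold. In the empty vector lungs 1 of 18834 genes was called (0.00531%), and the test of the difference between the saracatinib effects in the saline and the empty vector lungs called 6 of 19529 (0.0307%).

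Adamtsl2 fell with saracatinib. It had 96.8, 102, 79.2, 97.3 and 76.3 CPM in the 5 saracatinib libraries, against 161, 160, 272, 179 and 237 CPM in the 5 vehicle libraries. Every saracatinib value was below every vehicle value, and the vehicle values spread more widely. The means were 90.3 ± 11.7 CPM with saracatinib and 202 ± 50.2 CPM with vehicle (SD, n = 5 each), a log2 fold change of -1.16 ± 0.16 (SE) with a 95% interval of -1.49 to -0.83 and an adjusted p of 0.00841 by edgeR's quasi-likelihood test. The gene lies on chromosome 2 of GRCm38, from 27079379 to 27108981 on the plus strand, in GENCODE M21. Over 18 alternative settings its log2 fold change stayed between -1.23 and -1.03, and it was called in 15, with adjusted p-values from 2.31e-08 to 0.162. The call was lost without saracatinib replicate 3 (adjusted p = 0.0604), with the 2 saline groups fitted alone (adjusted p = 0.0554) and with the clock score as a covariate (adjusted p = 0.162). The clock score, given below, did not overlap between the saline groups (0.548 to 1.46 with saracatinib, -0.157 to 0.412 with vehicle). As a covariate it takes up part of the drug contrast, here and wherever it is used below. In bulk lung RNA, fewer cells of a type and less RNA per cell cannot be told apart, here and in all that follows.

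In empty vector lungs the groups were not ordered in this way. Adamtsl2 averaged 85.1 ± 19.9 CPM with saracatinib and 68.7 ± 18.7 CPM with vehicle there, with overlapping values and a log2 fold change of 0.31 ± 0.18. The level of both empty vector groups was thus nearer to that of the saracatinib saline group than to that of the vehicle saline group, although the tables of the models were scaled separately. In the bleomycin lungs the means were 140 ± 22.4 CPM with saracatinib and 189 ± 37.1 CPM with vehicle, and in the Ad-TGF-β1 lungs 188 ± 22 CPM with saracatinib and 249 ± 47.7 CPM with vehicle (SD, n = 5 each).

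**Figure D1:**
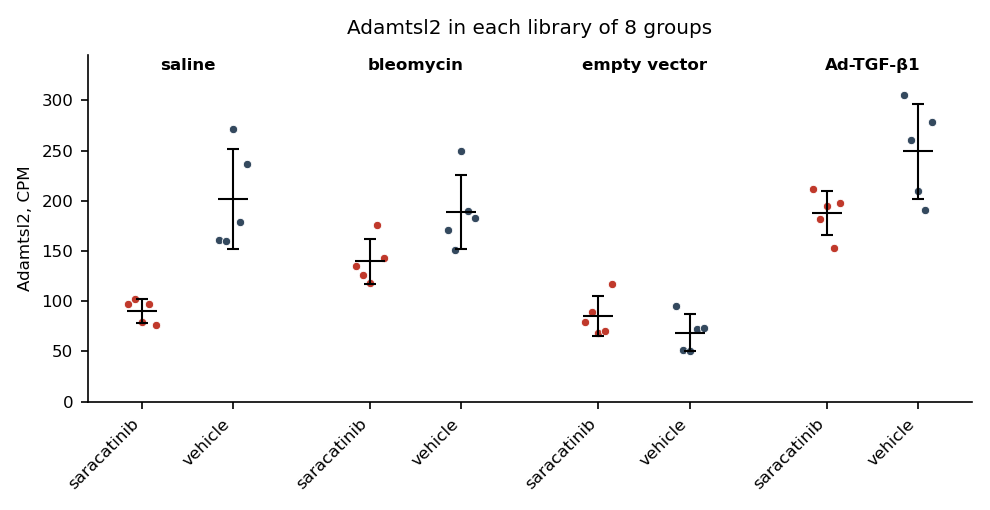
Adamtsl2 in CPM (y axis, from 0) in each library of the 8 groups, with saracatinib (red) left of vehicle (dark) for each exposure. Points are mice and the bars show the mean and SD of 5. In saline lungs all saracatinib points (76.3 to 102 CPM) lie below all vehicle points (160 to 272 CPM), and in empty vector lungs the groups overlap.

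The 6 genes whose saracatinib effect differed between saline and empty vector lungs were Adamtsl2, Lpgat1, Tmem119, Bcl6b, Bcas3os1 and Rnf170, all by edgeR's quasi-likelihood test over 40 libraries. For Adamtsl2 the log2 difference of the effects was -1.47 ± 0.25 (adjusted p = 0.0104). Lpgat1, an acyltransferase of phospholipid synthesis, differed by -0.40 ± 0.07 (adjusted p = 0.0104), with 105 ± 4.72 CPM in saracatinib and 134 ± 10.1 CPM in vehicle saline lungs, and 155 ± 6.37 and 150 ± 3.41 CPM in saracatinib and vehicle empty vector lungs. Tmem119, a membrane protein known for bone formation and as a microglial marker, differed by -1.14 ± 0.20 (adjusted p = 0.013). Its saline values were 25.5, 33, 27.7, 33.1 and 21 CPM with saracatinib, against 43.3, 48.6, 45.2, 44.7 and 52 CPM with vehicle, whereas in empty vector lungs it averaged 31.6 ± 2.13 CPM with saracatinib and 24 ± 5.69 CPM with vehicle.

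Bcl6b, an endothelial transcriptional repressor related to Bcl6, was the one of the 6 with a positive difference, 1.91 ± 0.37 (adjusted p = 0.0396, edgeR). In saline lungs it had 103, 95, 88.8, 110 and 68.5 CPM with saracatinib and 42.1, 39.5, 35.1, 49.8 and 42.5 CPM with vehicle. The empty vector lungs had 39.6, 28.9, 25.4, 43.7 and 50.2 CPM with saracatinib and 67.2, 47.6, 69.2, 67.9 and 67 CPM with vehicle. The groups did not overlap in saline lungs, where saracatinib was higher, and lay mostly the other way in empty vector lungs. The log2 fold change of Bcl6b in saline lungs, 1.16 ± 0.29, did not pass with the 4 groups of the table fitted together (adjusted p = 0.303, edgeR) and passed with the 2 saline groups fitted alone (adjusted p = 0.0247, edgeR). Bcas3os1, which is named as an opposite-strand gene of Bcas3, differed by -1.73 ± 0.32 (adjusted p = 0.0251), and reads of the sense gene cannot be told apart from it because the strand setting of the counting is not given. It averaged 3.22 ± 1.44 CPM with saracatinib and 6.89 ± 0.881 CPM with vehicle in saline lungs, and 3.66 ± 0.719 CPM with saracatinib and 2.35 ± 0.812 CPM with vehicle in empty vector lungs. Rnf170, an E3 ubiquitin ligase of the endoplasmic reticulum, differed by -0.44 ± 0.09 (adjusted p = 0.0396).

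The number of calls moved most with 1 empty vector library. Without empty vector vehicle replicate 1, whose ciliated cell score was 5.35 in a group reaching 6.7, the number of calls was 248 for the difference and 1112 for the saracatinib effect within empty vector lungs, where all 10 libraries together gave 1. Without empty vector vehicle replicate 2 the numbers were 29 and 4, and without saline vehicle replicate 5 the difference gave 13 calls. All 6 genes were among the 248 and among the 29, 4 of the 6 were among the 85 that DESeq2 called, and the number was 3 without saline vehicle replicate 3 and without empty vector saracatinib replicate 1 or 2 or empty vector vehicle replicate 4 or 5. Without any 1 of the empty vector saracatinib libraries, or without empty vector vehicle replicate 3, 4 or 5, no gene was called within empty vector lungs. At an unadjusted p under 0.05, 841 genes were higher and 1243 lower there, and 2329 and 2348 without vehicle replicate 1. The gene called in empty vector lungs was Adm, the vasodilator peptide adrenomedullin, at 2.94 ± 0.7 CPM with saracatinib and 6.64 ± 1.12 CPM with vehicle (log2 fold change -1.17 ± 0.18, adjusted p = 0.0417, edgeR). In saline lungs Adm averaged 7.8 ± 1.42 CPM with saracatinib and 12.3 ± 1.56 CPM with vehicle, with groups that did not overlap and an adjusted p of 0.329.

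Among genes with a mean of at least 1 CPM and groups that did not overlap, the 9 with the lowest p on the lower side after Adamtsl2 did not pass the adjusted threshold of edgeR's quasi-likelihood test. They were Lpgat1 (log2 fold change -0.35), Spon2 (-0.83), Adamts8 (-0.47), Eln (-0.86), Tmem119 (-0.74), Skil (-0.77), Id3 (-1.82), Cry1 (-0.52) and Ccn5 (-0.62), with adjusted p-values between 0.0563 and 0.23. Eln encodes elastin, the core of elastic fibres, and had 476, 402, 449, 380 and 439 CPM with saracatinib, against 641, 688, 831, 965 and 774 CPM with vehicle. Spon2 encodes a secreted matrix protein and averaged 29.7 ± 5.59 CPM with saracatinib and 52.8 ± 6.48 CPM with vehicle. Adamts8, a secreted metalloprotease, averaged 40.5 ± 5.62 CPM with saracatinib and 56 ± 3.84 CPM with vehicle. Ccn5, a matricellular protein of the CCN family, averaged 27 ± 4.21 CPM with saracatinib and 41.6 ± 4.88 CPM with vehicle. Spon2, Adamts8, Eln and Ccn5 code for secreted proteins. By DESeq2 all of the 9 were called, and by limma voom Lpgat1, Spon2, Adamts8, Eln, Tmem119 and Skil.

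Under the same conditions, the 10 genes with the lowest p on the higher side were Epha2, Sec14l1, Asxl1, Fry, Ric8a, Bcl6b, Myo16, Plscr1, Trib2 and Igf1r, with adjusted p-values between 0.239 and 0.323. DESeq2 called Epha2, Sec14l1, Asxl1, Fry, Ric8a, Bcl6b and Trib2, with adjusted p-values between 0.00427 and 0.0495. It did not call Plscr1 (0.0741) or Igf1r (0.0537), and gave no adjusted p for Myo16. Epha2, an ephrin receptor tyrosine kinase, had 167, 160, 149, 170 and 169 CPM with saracatinib and 132, 119, 120, 120 and 124 CPM with vehicle, a log2 fold change of 0.40 ± 0.09. It was the single gene higher with saracatinib that limma voom called (adjusted p = 0.0202), and in empty vector lungs its log2 fold change was -0.22. Igf1r, the receptor of insulin-like growth factor 1, averaged 339 ± 32.6 CPM with saracatinib and 276 ± 25.7 CPM with vehicle. Its ligand gene Igf1 averaged 20.7 ± 3.16 CPM with saracatinib and 40 ± 10.8 CPM with vehicle, without overlap and with an adjusted p of 0.394. Trib2, a pseudokinase, averaged 164 ± 26.6 CPM with saracatinib and 117 ± 13.9 CPM with vehicle. Cyb561, a membrane cytochrome that recycles ascorbate, was called by DESeq2 (adjusted p = 0.00239) and averaged 97.3 ± 6.75 CPM with saracatinib and 78.6 ± 6.03 CPM with vehicle.

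**Figure D2:**
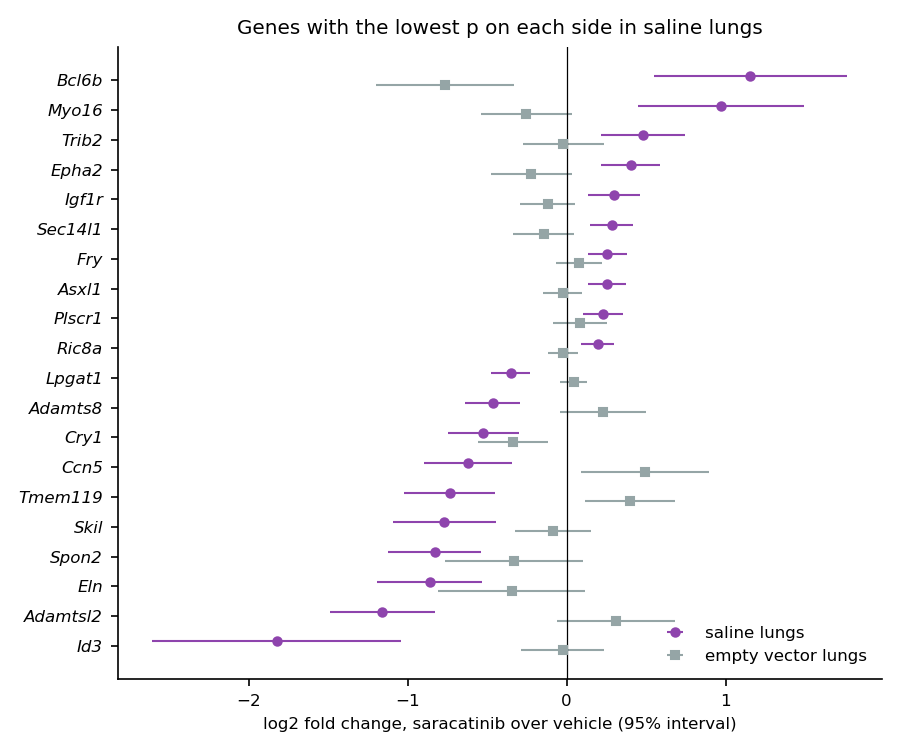
Log2 fold change of saracatinib over vehicle (x axis) with its 95% interval for the 10 genes with the lowest p on each side in saline lungs (y axis). Circles are saline lungs, which chose the genes, and squares are empty vector lungs. Adamtsl2 is at -1.16 in saline and 0.31 in empty vector lungs, and Bcl6b at 1.16 and -0.76.

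Genes that BMP signalling is known to switch on lay lower with saracatinib in saline lungs. This list of 21 BMP ligand, receptor and target genes was written after the values of Id3, Smad6 and Smad7 had been seen, so it is described and not tested. Id3 had 37.5, 24.6, 17.4, 19.3 and 10.4 CPM with saracatinib, against 93.7, 72.5, 60, 91.7 and 73.9 CPM with vehicle. Id1 had 41, 26.4, 12.2, 18 and 9.98 CPM with saracatinib, against 66.4, 56.3, 50.4, 59.3 and 44.2 CPM with vehicle. In both genes the groups did not overlap, and the log2 fold changes were -1.82 ± 0.38 for Id3 and -1.34 ± 0.38 for Id1. Id2 averaged 20.4 ± 5.34 CPM with saracatinib and 29.5 ± 2.81 CPM with vehicle, with some overlap, and Id4 10.2 ± 2.37 CPM with saracatinib and 11.1 ± 1.56 CPM with vehicle.

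The inhibitory Smads followed the same order. Smad6 had 94.2, 76.7, 61, 77.6 and 50.5 CPM with saracatinib, against 200, 150, 148, 194 and 101 CPM with vehicle (log2 fold change -1.14 ± 0.34). Smad7 had 121, 99.8, 90.8, 94 and 63.7 CPM with saracatinib, against 194, 185, 163, 201 and 130 CPM with vehicle (log2 fold change -0.89 ± 0.20). Neither gene's groups overlapped. Atoh8, a basic helix-loop-helix factor of endothelium, averaged 7.92 ± 1.74 CPM with saracatinib and 17.7 ± 1.68 CPM with vehicle, and Hey1, a repressor downstream of Notch and BMP, 22.8 ± 4.79 CPM with saracatinib and 38.3 ± 4.73 CPM with vehicle. None of these target genes passed the adjusted threshold of edgeR's quasi-likelihood test, and DESeq2 called Id3 and Smad7. The adjusted p-values of edgeR were 0.184 for Id3, 0.239 for Atoh8, 0.248 for Smad7, 0.385 for Id1 and 0.403 for Smad6.

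Of 12 target genes listed, 11 passed the filter on low counts. In 6 of these (Id1, Id3, Smad6, Smad7, Atoh8 and Hey1) all saracatinib values lay below all vehicle values, as in 0.944% of all genes. Leaving out Id3, Smad6 and Smad7, whose values had been seen, the count was 3 of 8 with a median log2 fold change of -0.57. These 8 are not an independent set, since earlier results of these data were known and Hey1 is also in the artery, vein and lymphatic list. The median log2 fold change of the 11 was -0.74, and -0.67 without saracatinib replicate 5. Msx2 was the target gene that did not pass the filter. The 5 receptor genes lay close to no change, with a median of -0.10 and a range of -0.16 to -0.04. Acvr1 averaged 38.6 ± 2.13 CPM with saracatinib and 39.5 ± 1.92 CPM with vehicle, and Bmpr2 888 ± 262 CPM with saracatinib and 940 ± 200 CPM with vehicle. The 4 ligand genes Bmp2, Bmp4, Bmp5 and Bmp6 had a median of -0.09. The median of the 11 target genes in empty vector lungs was -0.03, and 0.12 without vehicle replicate 1. There Id3 averaged 61 ± 5.91 CPM with saracatinib and 62.1 ± 14.2 CPM with vehicle, and the log2 difference of the Id3 effects between saline and empty vector lungs, -1.80 ± 0.41, did not pass (adjusted p = 0.0978, edgeR). The bleomycin lungs had 20, 93.5, 21.8, 81 and 88.9 CPM of Id3 with saracatinib, against 70, 61.3, 86.6, 70.2 and 75.3 CPM with vehicle. Replicates 1 and 3 of that saracatinib group were below all vehicle libraries for Id3, and so they were for Atoh8, at 7.24 and 7.94 CPM against 11.5 to 20.5 CPM with vehicle, and above them for Bcl6b, at 81.4 and 91.1 CPM against 30.5 to 43.7 CPM with vehicle. The other bleomycin saracatinib libraries had 19.1 to 20 CPM of Atoh8 and 24 to 31.2 CPM of Bcl6b. Replicates 1 and 3 stood apart from these in clock genes as well. They had 5.41 and 9.18 CPM of Dbp against 20.9 to 36.6 CPM, and 63.8 and 86.9 CPM of Nr1d2 against 101 to 117 CPM. Npas2 was at 26.9 and 26.4 CPM against 15.1 to 20.5 CPM, while Ciart did not split in this way. Whether these differences are linked was not tested.

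**Figure D3:**
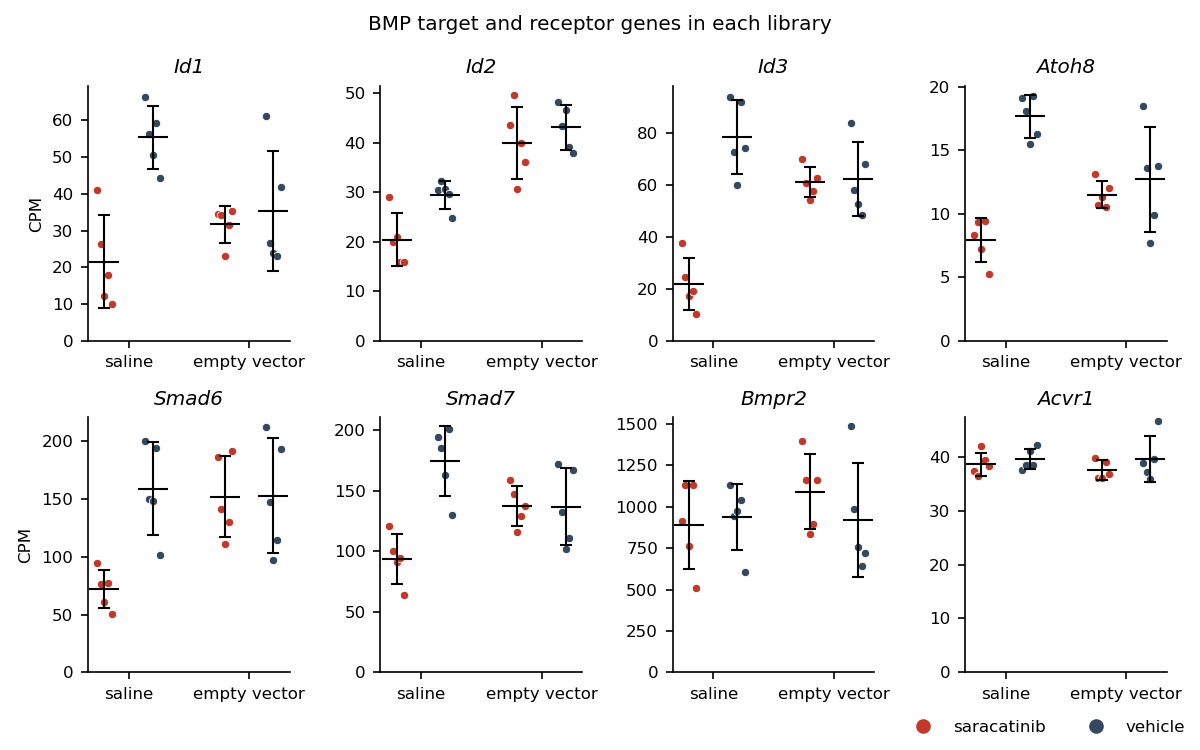
BMP target genes and a pair of receptor genes (Bmpr2 and Acvr1) in CPM (y axes, from 0) in each library of the saline and empty vector lungs, saracatinib (red) left of vehicle (dark). Points are mice and the bars show the mean and SD of 5. Id1, Id3, Atoh8, Smad6 and Smad7 separate in saline lungs and overlap in empty vector lungs, and the receptor genes overlap in both.

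Most matrix and TGF-β genes had negative changes, none but Adamtsl2 past the adjusted threshold of edgeR, while DESeq2 called Eln, Skil, Smad7 (adjusted p = 0.00883), Mfap4 (adjusted p = 0.0202) and Aspn (adjusted p = 0.0344) as well. Among 32 fibrillin microfibril and elastic fibre genes tested, Adamtsl2 was the 1 called. At an unadjusted p under 0.05 were 9, all of them lower (4.25% of all genes), and 7 were lower without overlap (0.944% of all genes). The list's median log2 fold change was -0.17, beside 0.00745 over all genes, and -0.15 without saracatinib replicate 5. Besides Adamtsl2 and Eln, the 9 held Mfap4, a microfibril-associated glycoprotein, at 259 ± 68.8 CPM with saracatinib and 423 ± 56.1 CPM with vehicle, and Mfap5, Fbln1, Emilin1, Adamts10, Adamtsl4 and the elastin cross-linking oxidase Loxl1. Loxl1 averaged 101 CPM with saracatinib and 137 CPM with vehicle, with a log2 fold change of -0.44 ± 0.11 and an adjusted p of 0.323. In empty vector lungs the list's median was 0.05, with 3 genes higher and 1 lower at an unadjusted p under 0.05, and 0.145 with 10 higher and 2 lower without vehicle replicate 1. Over all genes in these lungs 841 were higher and 1243 lower, and 2329 and 2348 without that library.

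Of 29 TGF-β pathway and feedback genes, 5 had an unadjusted p under 0.05, all lower (4.25% of all genes): Skil, Smad7, Smad6, Pmepa1 and Tgfbr1. The first 4 are feedback inhibitors that are themselves targets of the pathway. Skil, which encodes the Smad co-repressor SnoN, had 75.5, 68.1, 74.1, 64.2 and 56.7 CPM with saracatinib, against 113, 124, 118, 134 and 87.8 CPM with vehicle (log2 fold change -0.77 ± 0.155, adjusted p = 0.181, edgeR). The ligand genes averaged 60.6 CPM for Tgfb1, 33.7 CPM for Tgfb2 and 57.8 CPM for Tgfb3 with saracatinib, against 59.8, 36.8 and 58.6 CPM with vehicle. The median of the list was -0.10 in saline lungs and 0.03 in empty vector lungs, where 2 were lower, and 0.10 with 8 higher and 2 lower without vehicle replicate 1. Over all genes 2329 were higher and 2348 lower without that library.

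Among 31 collagens and collagen enzymes, 10 were lower at an unadjusted p under 0.05 (4.25% of all genes) and none higher, 7 were lower without overlap (0.944% of all genes), and 26 of 31 had a negative change (median -0.22). Col3a1, a fibrillar collagen, averaged 765 CPM with saracatinib and 995 CPM with vehicle, Col6a3 420 CPM with saracatinib and 587 CPM with vehicle, and the collagen chaperone gene Serpinh1 283 ± 39 CPM with saracatinib and 361 ± 39.7 CPM with vehicle. Col13a1, a membrane collagen that marks alveolar fibroblasts, averaged 76.3 ± 17.2 CPM with saracatinib and 106 ± 15.6 CPM with vehicle. Without saracatinib replicate 5 the count was 8 lower with a median of -0.21. The collagen median in empty vector lungs was 0.03 with 2 higher, and 0.07 with 10 higher and 1 lower without vehicle replicate 1. Alveolar fibroblast genes had 8 of 17 lower at an unadjusted p under 0.05, none higher and a median of -0.32, among them Fgfr4, a growth factor receptor, at 32.1 ± 9.47 CPM with saracatinib and 50.1 ± 7.51 CPM with vehicle. With the clock score as a covariate 4 of the 17 were lower. Their median in empty vector lungs was 0.25, with 3 higher and none lower, and 0.43 with 14 higher without vehicle replicate 1. At that setting 2329 of all genes were higher and 2348 lower, so such list counts were common there.

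Activated fibroblast genes had 3 of 20 lower (4.25% of all genes) and none higher at an unadjusted p under 0.05 (median -0.26). These were Aspn, a small proteoglycan at 14.9 ± 2.25 CPM with saracatinib and 23.4 ± 4.06 CPM with vehicle, Bgn at 631 ± 106 and 871 ± 76.5 CPM with saracatinib and vehicle, and Fap at 3.5 ± 0.791 and 4.95 ± 1.13 CPM with saracatinib and vehicle. Smooth muscle genes had 2 of 14 lower at an unadjusted p under 0.05, of which one was again Aspn and the other Hhip, the Hedgehog-interacting protein, at 79.1 ± 4.93 CPM with saracatinib and 106 ± 18 CPM with vehicle. Yet 11 of the 14 had a positive change and the median was 0.33, against 0.05 without saracatinib replicate 5, and the contractile gene Actc1 ran from 49.5 CPM to 154 CPM within the saracatinib group, highest in that replicate. Pericyte genes had 1 of 13 lower, Trpc6, a calcium channel, at 63 ± 13.6 CPM with saracatinib and 84.9 ± 10.2 CPM with vehicle (median of the list -0.10).

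The clock genes lay on opposite sides by list, none past the adjusted threshold of edgeR, and DESeq2 called Cry1 (adjusted p = 0.00786). All 12 genes of the E-box and D-box arm had a positive log2 fold change (median 0.31). Of these, 5 had an unadjusted p under 0.05 (3.18% of all genes) and 3 did not overlap (0.456% of all genes). Nr1d1 (REV-ERBα) had 133, 129, 141, 159 and 197 CPM with saracatinib, against 102, 72.2, 73.2, 66.8 and 88.4 CPM with vehicle (log2 fold change 0.91 ± 0.26, adjusted p = 0.385, edgeR). Nr1d2 had 75.4, 79.3, 81.5, 94.2 and 118 CPM with saracatinib, against 65, 49.3, 67.5, 49.7 and 60.3 CPM with vehicle (log2 fold change 0.62 ± 0.17). Tef, whose promoter holds the E-box shown, had 184, 183, 223, 181 and 329 CPM with saracatinib, against 165, 141, 177, 142 and 178 CPM with vehicle. Saracatinib replicate 5 was the highest library for all 3 of these genes.

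Dbp had the largest log2 fold change of the 12, 1.57 ± 0.47, from 16.9 ± 9.73 CPM with saracatinib and 5.62 ± 1.66 CPM with vehicle, and its groups overlapped by 1 library. Per3, with its pair of D-boxes, averaged 104 ± 45.1 CPM with saracatinib and 71.7 ± 15.2 CPM with vehicle. The other 7 (Cry2, Per1, Hlf, Usp2, Per2, Ciart and Bhlhe41) had log2 fold changes from 0.06 to 0.32 and unadjusted p-values of 0.0744 or more. Leaving out saracatinib replicate 5 left 3 of the 12 at an unadjusted p under 0.05 with a median of 0.21.

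In the list called the positive arm, 4 of 6 genes were lower at an unadjusted p under 0.05 (4.25% of all genes). Of the 6, 3 were lower without overlap (0.944% of all genes). Not all members of this list are activators. Cry1, for one, is a repressor and an E-box target, and without Cry1 3 of 5 were lower and 2 did not overlap. Arntl, which has the ROR element in the window shown but not in its other window, had 67.8, 66, 63.6, 57.3 and 51.1 CPM with saracatinib. With vehicle it had 74.2, 93.3, 77.7, 79.3 and 84.8 CPM (log2 fold change -0.42 ± 0.14). Npas2 had 27.8, 26.3, 29.8, 17 and 26.1 CPM with saracatinib, against 33, 49.9, 38.5, 37.3 and 44.5 CPM with vehicle (log2 fold change -0.68 ± 0.24). Cry1, which peaks late in the cycle and whose promoter holds the second E-box shown, had 15.9, 16, 15.6, 14.1 and 16.4 CPM with saracatinib, against 22.4, 24.6, 21.3, 18.8 and 25 CPM with vehicle (log2 fold change -0.52 ± 0.11, adjusted p = 0.184, edgeR). Clock averaged 152 ± 17.7 CPM with saracatinib and 172 ± 12.9 CPM with vehicle, and Nfil3 had a log2 fold change of -0.08.

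The medians of both lists had the same sign in empty vector lungs as in saline lungs (0.40 and -0.49), although Per1 (-0.30), Usp2 (-0.22) and Cry2 (-0.01) had negative changes there and Clock a positive one (0.01). In these lungs 7 of 12 E-box and D-box genes were higher and 4 of 6 positive arm genes lower at an unadjusted p under 0.05. Of all 18834 genes tested there, 841 were higher and 1243 lower. Without vehicle replicate 1 the first list had 5 higher and 1 lower and the second 4 lower. Over all genes 2329 were then higher and 2348 lower, so low p-values were more common at that setting. Npas2 averaged 10.7 ± 3.7 CPM with saracatinib and 25.4 ± 5.84 CPM with vehicle there, and Nr1d2 152 ± 32.7 CPM with saracatinib and 101 ± 8.82 CPM with vehicle. In bleomycin lungs some clock genes went the other way. With saracatinib and vehicle there, Arntl averaged 53.7 and 44.2 CPM, Npas2 21.4 and 13.8 CPM, and Nr1d2 96.4 and 106 CPM. Dbp (20.1 and 18.6 CPM), Tef (200 and 170 CPM) and Cry1 (14.5 and 17.6 CPM) kept the saline order, as did Per3, Ciart and Nfil3. The clock score, the mean log2 CPM of the first arm minus that of the second, was 0.98 ± 0.35 with saracatinib (0.548 to 1.46) and 0.237 ± 0.23 with vehicle (-0.157 to 0.412) in saline lungs. In empty vector lungs it was 1.86 ± 0.572 with saracatinib and 0.995 ± 0.224 with vehicle (SD, n = 5 each). The labels give no hour of harvest, and the part of the clock in the other results was not tested beyond adding the score as a covariate. Under it edgeR called 0 genes, with 470 higher and 462 lower at an unadjusted p under 0.05. Because the score did not overlap between the saline groups, these counts cannot separate the clock from the drug.

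**Figure D4:**
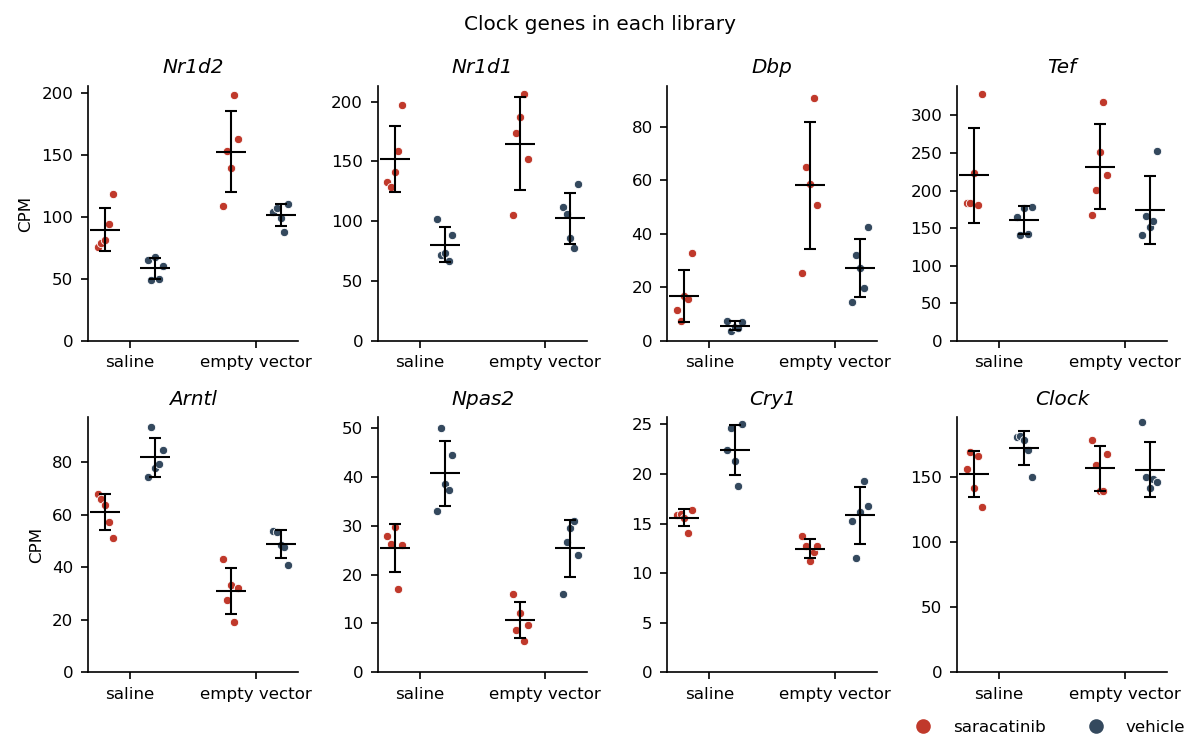
Clock genes in CPM (y axes, from 0) in each library of the saline and empty vector lungs, saracatinib (red) left of vehicle (dark). Points are mice and the bars show the mean and SD of 5. The top row is of the E-box and D-box arm and the bottom row of the list called the positive arm, with Cry1. In saline lungs Nr1d2, Nr1d1 and Tef lie higher with saracatinib without overlap, and Arntl, Npas2 and Cry1 lower.

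The genes of the drug's kinase targets themselves showed little difference. None of the 15 Src family kinases and regulators was called, and the median was 0.02. At an unadjusted p under 0.05, 2 were higher (3.18% of all genes) and 1 lower (4.25% of all genes). Src had 90.2, 91.3, 90, 85.9 and 95.8 CPM with saracatinib, against 94.2, 82.2, 83.6, 92.4 and 95.8 CPM with vehicle, with a log2 fold change of 0.02 ± 0.06 and a 95% interval of -0.11 to 0.14. Fyn (79.2 ± 13.3 CPM with saracatinib and 78 ± 6.04 CPM with vehicle), Lyn (108 ± 19.8 and 108 ± 11.7 CPM with saracatinib and vehicle) and Yes1 (65.2 ± 12 and 61 ± 8.04 CPM with saracatinib and vehicle) also overlapped. Per kilobase of exon, Lyn was the highest of the family with 26.4 CPM per kb with saracatinib and 26.5 with vehicle, followed by Src with 20.7 and 20.5 and Fyn with 18.1 and 17.9, saracatinib first in each, and Frk the lowest with 1.83 and 1.88.

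The B cell kinase gene Blk averaged 7.79 ± 1.92 CPM with saracatinib and 5.68 ± 1.22 CPM with vehicle (unadjusted p = 0.0262, adjusted p = 0.599, edgeR), and Csk, which phosphorylates the inhibitory tail of Src kinases, 91.9 ± 5.35 CPM with saracatinib and 83.3 ± 5.59 CPM with vehicle (adjusted p = 0.663). Pag1, the membrane anchor of Csk, averaged 99.2 ± 17.7 CPM with saracatinib and 116 ± 8.88 CPM with vehicle (adjusted p = 0.639). The myeloid kinase gene Fgr had a log2 fold change of -0.12 with a 95% interval of -0.67 to 0.42. Lck, Abl1, Abl2, Frk, Ptpn1 and Ptpra had log2 fold changes between -0.04 and 0.24, and all of them overlapped.

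Among 20 focal adhesion Src substrates none had an unadjusted p under 0.05 (median 0.03), and Stat3 was the 1 whose groups did not overlap, at 284 ± 16.5 CPM with saracatinib and 257 ± 6.8 CPM with vehicle. None of 18 SRF and YAP target genes had one either (median 0.12). Of 28 immediate early and ERK feedback genes 2 were higher at an unadjusted p under 0.05 (3.18% of all genes) and none lower. A positive change was seen in 23 of the 28 (median 0.26, beside 0.00745 over all genes). The 2 were Klf2, a flow-induced endothelial factor, at 283 ± 65.6 CPM with saracatinib and 214 ± 44.1 CPM with vehicle, and Ier2 at 49.9 ± 1.5 CPM with saracatinib and 40.1 ± 4.31 CPM with vehicle. That list had a median of -0.16 in empty vector lungs, with 4 higher and 6 lower, beside 841 and 1243 of all 18834 genes there.

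Of 25 heat shock and unfolded protein response genes, 14 were lower (4.25% of all genes) and 1 higher (3.18% of all genes) at an unadjusted p under 0.05. A negative change was seen in 21, and the median was -0.22. Hspa5, the chaperone BiP of the endoplasmic reticulum, had 388, 421, 336, 369 and 318 CPM with saracatinib, against 555, 513, 573, 508 and 389 CPM with vehicle (log2 fold change -0.47 ± 0.10, adjusted p = 0.184 by edgeR, 0.00353 by DESeq2 and 0.0213 by limma voom). Creld2, an endoplasmic reticulum stress gene, averaged 28.7 ± 2.25 CPM with saracatinib and 36.4 ± 2.84 CPM with vehicle without overlap, and Manf, a secreted stress protein, 47.3 ± 6.06 CPM with saracatinib and 61 ± 10.3 CPM with vehicle. The 14 also held the cytosolic and mitochondrial chaperone genes Hsp90aa1, Hspa8, Hsph1, Hspe1 and Hspd1, and the 1 higher gene was Chac1. Without saracatinib replicate 5 there were 11 lower. With the clock score as a covariate there were 7 lower and none higher. In empty vector lungs the median was -0.18 with 2 lower, and -0.03 with 1 lower and 1 higher without vehicle replicate 1.

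Immune genes were lower in some lists and higher in others. Interstitial and monocyte-derived macrophage genes had 6 of 25 lower at an unadjusted p under 0.05 (4.25% of all genes), none higher, 4 lower without overlap (0.944% of all genes), and a median of -0.22. With the clock score as a covariate 3 were lower. Ms4a7, a membrane protein of these macrophages, averaged 2.71 ± 0.479 CPM with saracatinib and 5.13 ± 1.19 CPM with vehicle, with overlap. The complement gene C1qa averaged 15.6 ± 1.67 CPM with saracatinib and 25 ± 4.16 CPM with vehicle, and the other C1q subunit genes C1qb and C1qc had log2 fold changes of -0.74 and -0.61. All 22 interferon-γ and MHC genes had a negative change (median -0.26) and 7 were lower at an unadjusted p under 0.05. Iigp1, an interferon-inducible GTPase, averaged 21.7 ± 7.79 CPM with saracatinib and 39 ± 17.5 CPM with vehicle. Cxcl9 was at 0.103 to 0.366 CPM with saracatinib and at 0.0819 to 7.41 CPM with vehicle, where 1 library held most of it. Type I interferon genes had 4 of 21 lower, none higher and 20 negative changes (median -0.23). Without saracatinib replicate 5 the interferon-γ count was 3 and the type I count 2, and with the clock score as a covariate each was 1. The medians in empty vector lungs were -0.37 and -0.30.

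B and plasma cell genes had 4 of 19 higher at an unadjusted p under 0.05 (3.18% of all genes), none lower and a median of 0.32. The B cell factor Pax5 was at 15.9 ± 3.69 CPM with saracatinib and 11 ± 3.26 CPM with vehicle. T cell genes had 1 of 22 higher, the chemokine receptor gene Ccr7 (median 0.19), and dendritic, mast cell and basophil genes 1 of 11 higher, again Ccr7, and 2 lower, Siglech and Irf8 (median -0.29). Alveolar macrophage genes had 1 of 19 lower, the mannose receptor gene Mrc1 at 59.6 ± 20.3 CPM with saracatinib and 81 ± 8.49 CPM with vehicle (median -0.14). Neutrophil (15 genes, median -0.37), NK and cytotoxic (18 genes, median -0.11) and platelet and erythroid genes (15 genes, median -0.13) had none at an unadjusted p under 0.05.

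Endothelial genes went both ways. Of 24 capillary genes 3 were higher (3.18% of all genes) and 2 lower (4.25% of all genes) at an unadjusted p under 0.05 (median 0.16). Prx, the myelin and endothelial protein periaxin, averaged 445 ± 120 CPM with saracatinib and 306 ± 73.6 CPM with vehicle, Gpihbp1, which carries lipoprotein lipase across capillaries, 63.5 ± 17.6 CPM with saracatinib and 44.2 ± 10.9 CPM with vehicle, and Sgk1, a kinase gene also in the glucocorticoid list, 63.8 ± 16.3 CPM with saracatinib and 105 ± 17.4 CPM with vehicle without overlap. Of 18 artery, vein and lymphatic genes 1 was higher and 4 lower (median -0.07). The higher one was the Notch ligand gene Dll4, at 75.8 ± 16.7 CPM with saracatinib and 50.6 ± 12.4 CPM with vehicle. The lower ones were the adhesion gene Vcam1, at 70.4 ± 16.1 CPM with saracatinib and 105 ± 11 CPM with vehicle, the connexin genes Gja4 and Gja5, and Hey1.

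Alveolar epithelium showed little. None of 16 type 1 and none of 19 type 2 cell genes had an unadjusted p under 0.05, with medians of 0.00481 and -0.07. Of 18 transitional epithelium genes 4 were higher (3.18% of all genes) and none lower (median 0.14). The 4 were the urokinase receptor gene Plaur and the keratin genes Krt18, Krt8 and Krt19. Krt19 averaged 117 ± 23.1 CPM with saracatinib and 92.3 ± 8.95 CPM with vehicle. Saracatinib replicate 5 was the highest library for all 3 keratins, and without it 2 genes of the list were higher. Ciliated cell genes had 22 of 23 positive changes with a median of 0.34 and none at an unadjusted p under 0.05, and without replicate 5 the median was -0.00465. Club and secretory genes had 1 of 15 higher, the mucin gene Muc5b (298 to 1680 CPM with saracatinib and 220 to 589 CPM with vehicle), and a median of 0.63 that became 0.20 without replicate 5. The ciliated and club medians in empty vector lungs were -0.45 and -0.38.

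The remaining lists are set beside 3.18% of all genes higher and 4.25% lower at an unadjusted p under 0.05. Most of them held few low p-values, and the p53 and senescence list held the most. Striated and pulmonary vein muscle genes had 2 of 18 higher, Tcap and Ckm, both under 10 CPM, and 18 of 18 positive changes (median 0.58). Mesothelial and adipocyte genes had 1 of 14 higher, Krt19 (median 0.34). p53 and senescence genes had 4 of 20 higher, with the kinase gene Plk2 at 117 ± 19.9 CPM with saracatinib and 74.3 ± 8.54 CPM with vehicle, and 1 lower (median 0.02). Cell cycle genes had 1 of 35 higher, the replication gene Gins2, beside 3.18% of all genes, and 24 negative changes (median -0.08). Aurkb, Cdca8 and Foxm1 were lower without overlap (0.944% of all genes), but no gene of the list was lower at an unadjusted p under 0.05. Levels were low for Aurkb (1.54 CPM with saracatinib and 2.53 CPM with vehicle) and Cdca8 (1.75 CPM with saracatinib and 2.64 CPM with vehicle). Glucocorticoid responsive genes had 2 of 18 higher, Zbtb16 and Map3k6, and Sgk1 lower (median 0.12). Adrenergic, osmotic and hypoxia genes had 1 of 21 higher, Txnip, and 1 lower, Adm (median 0.06). Fasting, lipid and PPAR genes had 1 of 17 higher, the mitochondrial carrier gene Ucp2 (median 0.11), and cholesterol and fatty acid synthesis genes 2 of 21 lower, Cyp51 and Idi1 (median -0.07). Xenobiotic metabolism genes had 1 of 34 higher, the cytochrome P450 gene Cyp4b1 (median 0.03), and none of the 11 mitochondrially encoded genes tested had a low p (median 0.12).

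**Figure D5:**
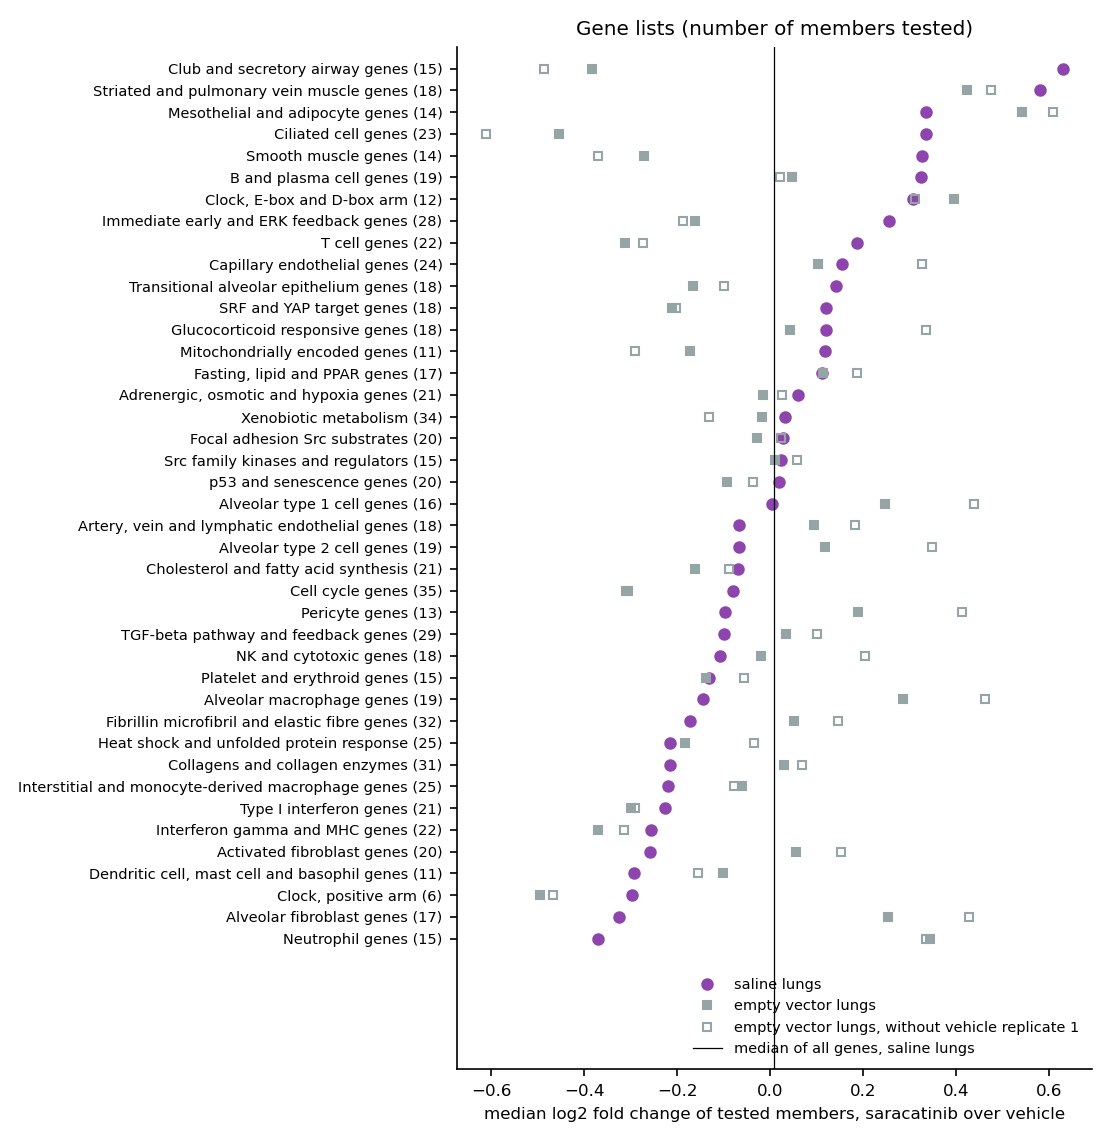
Median log2 fold change of saracatinib over vehicle (x axis) of the tested members of each of 41 gene lists (y axis). Circles are saline lungs, filled squares empty vector lungs, open squares empty vector lungs without vehicle replicate 1, and the line is the median of all genes in saline lungs (0.00745). Fibroblast, collagen and fibrillin lists lie left of the line in saline lungs and right of it in empty vector lungs, and the clock arms lie on the same side in both.

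The genes whose levels followed Adamtsl2 most closely across the 10 saline libraries, after the group means of log2 CPM had been removed, were Ttc17 (Pearson's r = 0.949), Il17d (0.936), Gm20257 (0.93), Dnase1l3 (0.926) and Ccl11 (0.923), out of 17326 genes. These values describe 10 libraries that share their depth and composition, and carry no test. Dnase1l3, a secreted nuclease, averaged 0.821 CPM with saracatinib and 2.47 CPM with vehicle without overlap (log2 fold change -1.53 ± 0.415), whereas Ttc17 averaged 72.9 CPM with saracatinib and 73.9 CPM with vehicle, and the eosinophil chemokine gene Ccl11 1.71 CPM with saracatinib and 1.8 CPM with vehicle.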

How the data were processed

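RNA from mouse left lungs was made into stranded libraries after removal of ribosomal RNA, per the labels' protocols. The values used are the gene counts deposited by the authors, 1 table of 20 libraries for each model with 55536 genes. Per the submitters' processing notes, STAR 2.6.1d, Picard, Subread 1.6.3 with featureCounts, and edgeR were used, with mm9 and GRCm38 named as builds. For the counting, the strand setting was not given in the sources used here. The deposited TMM-normalized tables were not used.

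Gene IDs were joined to GENCODE M21. In R 4.3.3, edgeR 4.0.16 (filterByExpr by group, TMM factors, quasi-likelihood test, Benjamini-Hochberg adjustment over all genes tested, called at an adjusted p under 0.05) was fitted with 1 coefficient per group on the 4 groups of each table, and on all 40 libraries for the difference of effects. Levels are CPM on TMM-scaled totals, and log2 CPM in scores used a prior count of 2. All adjusted p-values are from this test unless DESeq2 1.42.0 or limma 3.58.1 (voom) is named. The steps were tested on simulated data. Replicates are numbered in accession order. Over genes with at least 20 counts, chi-square per degree of freedom was 4.29 to 52.7 for the 20 replicate pairs within the saline groups, so no pair was a repeat of 1 library.

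The comparison, the 41 gene lists (802 genes, of which 764 were tested in saline lungs) and the tests were chosen with earlier results of these data known. Genes were named by rule: those called, the 10 lowest p on each side with a mean of at least 1 CPM and no overlap, all clock and Src family members, the 3 lowest p of each other list, and up to 10 called by another tool. Of these, 3 genes are not reported here. Some genes were named after their values were seen, namely the BMP list, Loxl1, the C1q genes, Col3a1, Col6a3, the Tgfb ligand genes and the other list members given without full values. Alternatives were DESeq2 size factors, no filter, a minimum mean CPM, DESeq2, voom, the saline groups alone, a clock or ciliated score as covariate, and leaving out each library. List counts without single libraries and with covariates, and the BMP list, were added after seeing the data.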

Additional observations from a re-analysis of the deposited data

Results flagged for a closer look

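In 18 of 310 groups of 5 libraries, over 155 named genes, 1 library stood far from the others by Dixon's test, and chance flags about 1 in 20 groups. Among the saracatinib libraries, replicate 5 was highest for Tef (329 CPM, the nearest other library at 223), Cry2 (148 CPM, nearest 112), Krt18 (127 CPM, nearest 78.7) and Krt8 (259 CPM, nearest 154). Saracatinib replicate 4 was lowest for Npas2 (17 CPM, nearest 26.1), replicate 1 highest for C1qa (18.6 CPM, nearest 15.4) and replicate 2 highest for Treml1 (2.96 CPM, nearest 1.34).

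Among the vehicle libraries, replicate 5 was lowest for Abl2 (78.2 CPM, nearest 85.1), Stat3 (245 CPM, nearest 259) and Manf (42.8 CPM, nearest 63). Vehicle replicate 3 was highest for Cxcl9 (7.41 CPM, nearest 0.746), Muc5ac (8.49 CPM, nearest 3.77) and Cdca8 (3.09 CPM, nearest 2.62). Vehicle replicate 4 was highest for Cyp1a1 (151 CPM, nearest 6.04) and Siglech (6.58 CPM, nearest 3.13), replicate 2 for Krt18 (80.7 CPM, nearest 60.4) and Alas2 (24.5 CPM, nearest 7.09), and replicate 1 for Cyp4b1 (468 CPM, nearest 357).

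The saracatinib effect differed between saline and empty vector lungs, by the test of the difference itself, for Adamtsl2 (log2 difference -1.47), Lpgat1 (-0.40), Tmem119 (-1.14), Bcas3os1 (-1.73), Bcl6b (1.91) and Rnf170 (-0.44).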

How the results depend on the processing

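The number of genes called in saline lungs was 1 as reported, 1 with DESeq2 size factors, 3 without the filter on low counts, 4 at a mean of at least 1 CPM, 52 with DESeq2, 9 with limma voom, 1 with the saline groups alone (Bcl6b in place of Adamtsl2), 0 with the clock score and 17 with the ciliated score as a covariate, 1401 at an unadjusted p under 0.05, and 0 to 4 when 1 library was left out. In empty vector lungs it was 1 as reported, 0 without the filter, 0 with those groups alone, 7 with DESeq2 and 0 to 1112 when 1 library was left out. For the difference it was 6 as reported, 85 with DESeq2 and 3 to 248 when 1 library was left out. The cause of these moves was not tested. The intervals given with the values show what size of change 5 mice per group can resolve for each gene.

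Of 2784 alternative values for 155 genes, 2675 kept their direction and side of the threshold, 52 passed it newly, 3 no longer passed and 54, in 20 genes, changed sign. With the clock score as a covariate, log2 fold changes became 0.10 for Fgr, 0.023 for Frk, 0.029 for Lyn, -0.049 for Tpm2, -0.15 for Dbp, -0.15 for Per3, -0.005 for Cry2, -0.38 for Hlf, -0.058 for Usp2, -0.31 for Per2, -0.01 for Ciart, -0.12 for Bhlhe41, 0.25 for Nfil3 and 1.26 for Alas2. This covariate is built from the clock genes, and its values did not overlap between the saline groups, so it is confounded with the drug. With the ciliated score they became 0.021 for Ptpra, 0.055 for Lyn and -0.081 for Bhlhe41. With voom they became 0.017 for Fgr, 0.03 for Ptpra, 0.046 for Lyn and -0.052 for Per2. Ptpra and Lyn were at 0.003 and 0.001 with DESeq2, 0.002 and 0.001 with its size factors, and 0.002 and 0.002 without the filter.

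When 1 library was left out, ranges that crossed 0 were -0.42 to 0.07 for Fgr, -0.109 to 0.031 for Frk, -0.014 to 0.041 for Src, -0.034 to 0.095 for Fyn, -0.043 to 0.041 for Ptpra, -0.057 to 0.085 for Lyn, -0.111 to 0.272 for Per2, -0.079 to 0.178 for Bhlhe41, -2.02 to 1.04 for Cyp1a1, -0.431 to 0.041 for Spock2, -0.653 to 0.021 for Padi4 and -1.53 to 0.45 for Alas2. No paired analysis was possible because the labels give no replicate numbers shared between groups and the numbers used are in accession order.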
